A study of Mus musculus with 8 samples.

Results

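The response of kidney endothelium to LPS (lipopolysaccharide, an outer membrane component of many bacteria) was described over both genotypes of the study, SOCS3iKEO and wild type (WT). All 5 libraries from LPS mice were set against all 3 libraries from saline mice, with genotype as a covariate. A gene was taken as a member where every LPS library lay on one side of every saline library. Of 12820 genes with enough reads to be tested, 767 lay higher in all LPS libraries on the deposited scale (5.98%) and 3896 lay lower (30.4%). Because the libraries differed in composition, a direction was described only where the separation also held after scaling between libraries, which left the same count of 767 genes higher (5.98%) and 2091 lower (16.3%), 2858 in all. On the scaled values alone 1800 genes were separated higher (14%) and 2091 lower (16.3%), so the tilt to lower rests on the deposited scale. Over all 23930 amplicons of the panel, 811 and 4132 were separated higher and lower on the deposited scale, of which 44 and 236 had too few reads to be tested.

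The SOCS3iKEO LPS group held 2 mice, the WT LPS group 3, the SOCS3iKEO saline group 1 and the WT saline group 2. LPS mice received 250 µg of LPS in 250 µl and control mice 250 µl of saline, both as 1 injection into the abdomen, and kidneys were taken at 14 hours. All mice carried, per the labels, an EGFP/Rpl10a transgene for translating ribosome affinity purification (TRAP, in which tagged ribosomes are captured with their messenger RNA) under a tamoxifen-inducible cdh5-CreERT2 driver, so that the tag is meant for endothelial cells. The labels do not spell out SOCS3iKEO; it is read here as an inducible loss, in endothelium, of Socs3, the feedback inhibitor of cytokine receptor signals. Ages are not given in the labels, and the sex of each animal is not given either. The extraction text speaks of minced kidney lysed as tissue and gives no capture step. Amplicon libraries of an Ion AmpliSeq mouse transcriptome panel were sequenced, with 1 library per mouse. The unit is reads per 1000000 panel reads (RPM), and "scaled RPM" below means RPM divided by a between-library factor (TMM). Values are scaled RPM unless they are called deposited.

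LPS binds CD14 and Toll-like receptor 4, which act through MyD88 to release NF-kB from its inhibitors and switch on cytokines, chemokines and adhesion molecules. Secreted cytokines of the interleukin-6 family then act through JAK kinases on STAT3, which drives acute-phase genes and Socs3, a feedback inhibitor of that same signal. Interferons act in parallel on antiviral genes. Endothelial cells answer by recruiting leukocytes, shifting the balance of clotting and loosening their contacts, and they give up part of the gene programme of resting vessels.

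Libraries held 7093794 to 14877519 reads. The scaling factors were 0.671 and 0.709 in the SOCS3iKEO LPS libraries, 0.994, 1.07 and 1.01 in the WT LPS libraries, 1.25 in the SOCS3iKEO saline library and 1.26 and 1.25 in the WT saline libraries, so the scale moved with both treatment and genotype. The first principal component (67.8% of the variance) set the SOCS3iKEO LPS libraries apart from all others, and the second (19.8%) set the WT LPS libraries apart from the saline libraries. The 12 pan-endothelial markers summed to 5178 to 7268 in the LPS libraries and 5687 to 6407 in the saline libraries (two-sided exact permutation p = 0.929, where 0.0357 is the smallest the 8 libraries allow), and none was at 0, although 3 of the 12, Tek, Erg and Cldn5, were themselves separated lower. These and the following sums are of scaled RPM and depend on the scaling. The median log2 fold change of the 12 was -0.27 on scaled and -0.76 on deposited RPM. Over all genes tested the medians were -0.07 and -0.46. The p therefore does not show an unchanged endothelial share of the deposited reads. Proximal tubule markers (10 of 10 measured) summed to 1703 and 1099 in the SOCS3iKEO LPS libraries and 187, 174 and 249 in the WT LPS libraries, against 847 in the SOCS3iKEO saline library and 754 and 514 in the WT saline libraries (exact permutation p = 0.964). The exact test pools the genotypes, and opposite shifts such as these cancel in it, so its p does not show unchanged tubule markers. Leukocyte markers (9 of 10 measured) summed to 56.2 and 26.5 in the SOCS3iKEO LPS libraries and 15.2, 6.78 and 12.8 in the WT LPS libraries, against 7.33 in the SOCS3iKEO saline library and 4.34 and 13.7 in the WT saline libraries (exact permutation p = 0.179). In these bulk samples fewer cells of a type and less RNA per cell cannot be told apart. Y-linked genes had 3987, 3320 and 3805 reads in WT LPS 2, WT LPS 3 and WT saline 2 and 1 to 3 reads in the other libraries.

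Animal numbers in the labels fall into a low run (both WT saline and both SOCS3iKEO LPS mice) and a high run (the 3 WT LPS mice and the SOCS3iKEO saline mouse), so that treatment and run cannot be told apart within a genotype. The difference between the genotypes' LPS effects is the low run less the high run, and so genotype and run cannot be told apart in it either. Y-linked reads were also uneven between genotypes, at 1 to 3 in every SOCS3iKEO library but 3320 to 3987 in WT LPS 2, WT LPS 3 and WT saline 2. The part of sex in this difference was not tested. Within the low run, the 767 genes separated higher had a median log2 fold change of 2.21 in SOCS3iKEO LPS against WT saline. Within the high run their median was 1.18 in WT LPS against SOCS3iKEO saline. The 2091 genes separated lower had medians of -1.42 within the low run and -0.80 within the high run. The sign of these medians is fixed by the rule that chose the genes.

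Socs3 itself was separated higher. It was at 3.53 and 2.5 in the SOCS3iKEO LPS libraries and 9.94, 1.18 and 2.34 in the WT LPS libraries, against 0.226 in the SOCS3iKEO saline library and 0.5 and 0.162 in the WT saline libraries, which is 20 and 25 reads in SOCS3iKEO LPS, 118, 17 and 26 in WT LPS, 2 in SOCS3iKEO saline and 9 and 3 in WT saline. The fold change (log2 fold change 1.70 ± 0.46, adjusted p = 0.028, limma) was 1.70 in SOCS3iKEO and 1.71 in WT, with a 95% interval of the difference from -2.14 to 2.13. For Socs3, its call was lost without any 1 of SOCS3iKEO LPS 2, SOCS3iKEO saline 1, WT saline 1 and WT saline 2, with an adjusted p of up to 0.0847. The position of its amplicon is not given, and so these reads do not check the genotype.

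After LPS a small set of genes took a larger part of the reads. The 767 genes separated higher took 36.1% and 33.3% of all reads in the SOCS3iKEO LPS libraries and 20.1%, 15.1% and 16.9% in the WT LPS libraries, against 7.8% in the SOCS3iKEO saline library and 7.55% and 7.63% in the WT saline libraries. The 2091 genes separated lower took 2.39% and 2.51% in SOCS3iKEO LPS and 5.07%, 7.06% and 6.31% in WT LPS, against 13.5% in SOCS3iKEO saline and 14% and 13.8% in WT saline. Every LPS library thus lay outside the saline range in both shares, by construction of the set, and the SOCS3iKEO LPS libraries lay further out than the WT LPS libraries. The genes separated higher had a median level over all libraries of 5.39 on the log2 scale and the genes separated lower 3.06, against 4.05 for all genes tested; how well each amplicon captures its transcript is not known.

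**Figure D1:**
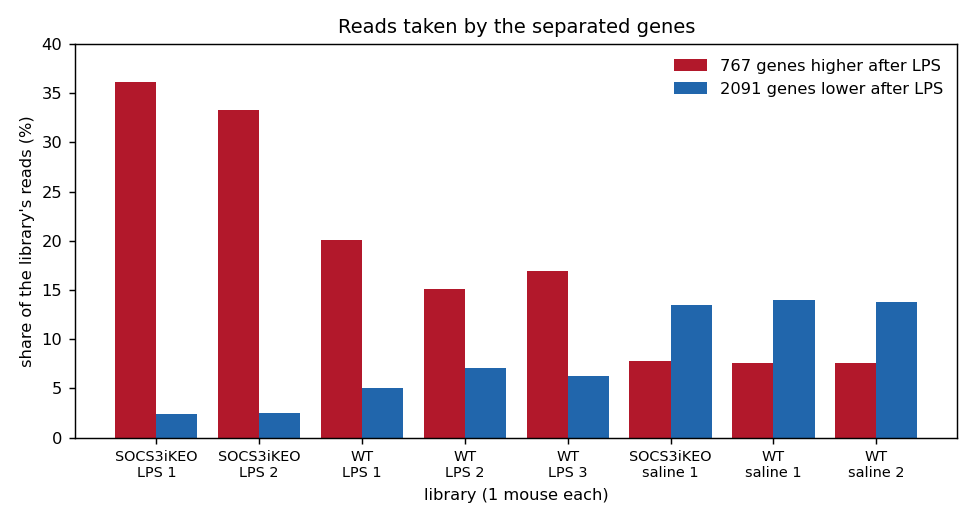
Share of each library's reads (%) taken by the genes separated higher (red) and lower (blue) after LPS, with 1 pair of bars per mouse. The share of the genes separated higher is 36.1% and 33.3% in the SOCS3iKEO LPS libraries and at most 7.8% in the saline libraries.

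In the limma test of LPS over both genotypes, 1304 of 12820 genes were called higher (10.2%) and 1603 lower (12.5%) at an adjusted p under 0.05 (Benjamini-Hochberg). Separation and this test use the same libraries, and neither supports the other. Of the 767 genes separated higher, 718 were called higher and 49 were not called; of the 2091 separated lower, 1432 were called lower and 659 were not. A further 586 genes called higher and 171 called lower were not separated on both scales. The median log2 fold change was 1.55 over the genes separated higher and -1.06 over those separated lower, against -0.07 over all genes tested. On deposited RPM without scaling, the median of all genes tested was -0.46, and 697 genes were called higher and 3624 lower, so the balance of directions depends on the scale. Without WT LPS 1, 760 genes were called higher and 861 lower; without SOCS3iKEO LPS 2, 811 and 951; and without WT saline 2, 794 and 968.

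Sizes within the separated set ran widely. A log2 fold change of 1 or more in each genotype was seen in 461 of the genes separated higher and 615 of those separated lower, of 2 or more in 138 and 81, of 3 or more in 52 and 18, and of 4 or more in 26 and 2. Genes separated higher that had no read in any saline library numbered 19, and genes separated lower with no read in any LPS library numbered 6. The gap between the nearest LPS and saline libraries on the deposited log2 scale had a median of 0.33 for genes separated higher and 0.58 for genes separated lower. At the edge of the rule, Rnf213, a large ubiquitin ligase, counted as higher with 247 and 196 deposited RPM in SOCS3iKEO LPS and 172, 127 and 87.1 in WT LPS, against 69.4 in SOCS3iKEO saline and 87 and 83.7 in WT saline. Chst11, a chondroitin sulfotransferase, just failed with 84.6 in the lowest LPS library against 84.7 in the highest saline library. Vps37c, a subunit of the endosomal sorting machinery, counted as lower on the deposited scale with 51.5 after rounding in both the highest LPS and the lowest saline library, and it was not separated after scaling. Osbpl8, a lipid transfer protein, just failed with 80.1 in both.

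The genes with the largest rise in both genotypes, ranked by the smaller of the effects in SOCS3iKEO and WT, were led by an iron-trapping acute-phase protein. Lcn2, which codes for lipocalin 2, a binder of bacterial siderophores, lies on chromosome 2 (mm10 32384633 to 32388252). It was at 8479 and 9397 in the SOCS3iKEO LPS libraries and 3555, 2869.8 and 3423 in the WT LPS libraries, against 5.54 in the SOCS3iKEO saline library and 1.67 and 1.13 in the WT saline libraries. Each LPS library lay far above the highest saline library, and the effect was of nearly the same size in each genotype, 10.41 in SOCS3iKEO and 10.42 in WT (log2 fold change 10.42 ± 0.18, adjusted p = 4.18e-09). The 95% interval of the difference ran from -0.75 to 0.74. Mctp2, a calcium-binding membrane protein of the endoplasmic reticulum, had 315 and 608 in SOCS3iKEO LPS and 371, 388 and 459.5 in WT LPS, against 1.36 in SOCS3iKEO saline and 1.17 and 2.58 in WT saline. Mctp2 rose by 7.31 ± 0.27 on the log2 scale (adjusted p = 2.28e-06). Ccl2, the chemokine that draws monocytes, had 273 and 516 in SOCS3iKEO LPS and 176, 251 and 207 in WT LPS, against 1.7 in SOCS3iKEO saline and 1.56 and 1.88 in WT saline. Ccl2 rose by 6.58 ± 0.28 on the log2 scale (adjusted p = 5.39e-06). For Mctp2 and Ccl2 all 5 LPS libraries lay close together and far above the saline libraries.

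Fibrinogen genes, which belong to the acute phase of the liver, and a serpin were among them. Serpina3f, a serine protease inhibitor of the antichymotrypsin family, had 289.7 and 259 in SOCS3iKEO LPS and 237, 126 and 102 in WT LPS, against 1.13 in SOCS3iKEO saline and 0.222 and 0.807 in WT saline. Fga, the fibrinogen alpha chain, had 248 and 299 in SOCS3iKEO LPS and 257, 51.9 and 127 in WT LPS, against 2.6 in SOCS3iKEO saline and 0.444 and 0.915 in WT saline, and Fgg, the gamma chain, had 126 and 152 in SOCS3iKEO LPS and 136, 29.3 and 80.1 in WT LPS, against 1.13 in SOCS3iKEO saline and 0.111 and 0 in WT saline. Both fibrinogen chains had their lowest LPS value in WT LPS 2. The log2 fold changes of Serpina3f, Fga and Fgg were 6.76 ± 0.30, 6.20 ± 0.43 and 6.04 ± 0.43 (adjusted p = 6.31e-06, 9.28e-05 and 9.28e-05). Near-identical relatives may share reads with Serpina3f, so its identity is less sure than that of the fibrinogen chains.

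Other genes were higher in every LPS library and highest in the SOCS3iKEO LPS libraries. Csf3, which codes for G-CSF, the growth factor of neutrophils, had 577 and 549 after LPS in SOCS3iKEO and 94.8, 26.9 and 49.4 after LPS in WT, against no read in any saline library. Against a floor of 3 reads per saline library, the mean of the LPS libraries was at least 1168-fold higher. Ifi205, an interferon-induced sensor of the HIN-200 family, had 957 and 675 in SOCS3iKEO LPS and 176, 74 and 56.5 in WT LPS, against 1.92 in SOCS3iKEO saline and 0.666 and 0.323 in WT saline. Ifi205 rose by 6.72 ± 0.49 on the log2 scale (adjusted p = 0.000109). Slfn4, a myeloid member of the Schlafen family, had 348 and 686 in SOCS3iKEO LPS and 114, 44.6 and 34.1 in WT LPS, against 0.679 in SOCS3iKEO saline and 0.555 and 0.215 in WT saline. Slfn4 rose by 6.38 ± 0.59 on the log2 scale (adjusted p = 0.000368). In each of these genes the lowest SOCS3iKEO LPS library lay above the highest WT LPS library. The difference between the genotypes' LPS effects was called for Csf3 (3.46, adjusted p = 0.0163) and Slfn4 (2.82, adjusted p = 0.042) but not for Ifi205 (2.16, adjusted p = 0.0618).

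Mt1, metallothionein 1, which binds zinc and copper, had 85283 and 58721 in SOCS3iKEO LPS and 8614, 1496 and 3662 in WT LPS, against 124 in SOCS3iKEO saline and 143 and 91.7 in WT saline. Mt1 rose by 6.46 ± 0.82 on the log2 scale (adjusted p = 0.00148). The SOCS3iKEO LPS libraries lay far above the WT LPS libraries, which in turn lay above the saline libraries. AA467197, which the files list by that name, had 2738 and 3718 in SOCS3iKEO LPS and 2334, 453 and 472 in WT LPS, against 16.2 in SOCS3iKEO saline and 54.3 and 8.07 in WT saline (log2 fold change 6.0 ± 0.76, adjusted p = 0.00144); WT LPS 1 stood near the SOCS3iKEO LPS libraries and the other WT LPS libraries lower. Zbtb16, the transcription factor PLZF and a textbook target of glucocorticoids, had 81.3 and 167 in SOCS3iKEO LPS and 175, 179.8 and 135 in WT LPS, against 1.36 in SOCS3iKEO saline and 2.05 and 0.646 in WT saline (log2 fold change 5.99 ± 0.31, adjusted p = 1.84e-05), with LPS values that overlapped between genotypes and no called difference (adjusted p of the difference = 0.548).

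**Figure D2:**
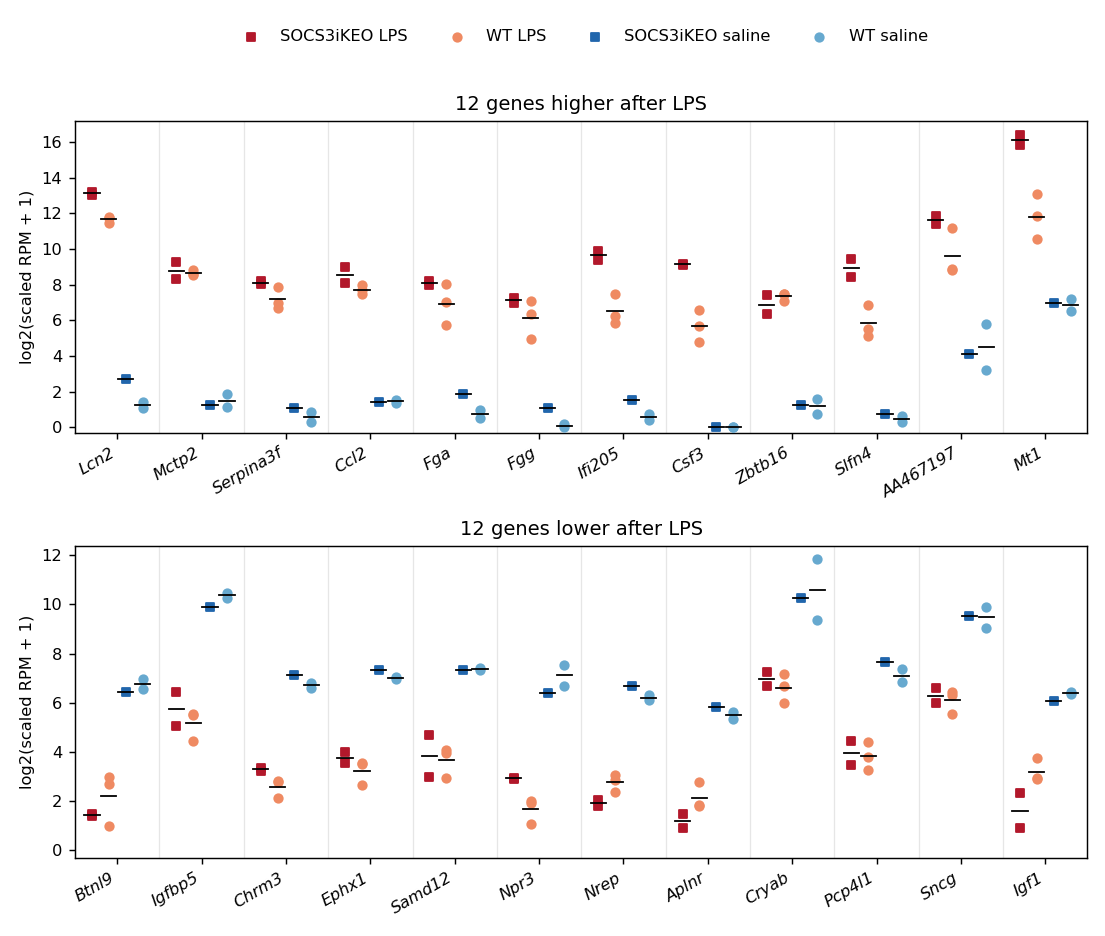
Level of each gene as log2(scaled RPM + 1) in every library for the 12 genes with the largest rise (top) and the 12 with the largest fall (bottom) in both genotypes. Squares are SOCS3iKEO, circles WT, red shades LPS and blue shades saline, and bars are group means. In all 24 genes the LPS points lie wholly on one side of the saline points, by the rule that chose them.

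The genes with the largest fall in both genotypes included receptors and regulators of growth factors. Btnl9, a butyrophilin-like surface protein, had 1.77 and 1.6 in SOCS3iKEO LPS and 1.01, 6.87 and 5.5 in WT LPS, against 85.2 in SOCS3iKEO saline and 94.5 and 125 in WT saline. Btnl9 fell by 4.71 ± 0.43 on the log2 scale (adjusted p = 0.000318). Igfbp5, which binds and regulates the growth factor IGF1, had 86 and 32.5 in SOCS3iKEO LPS and 21, 44.2 and 45.8 in WT LPS, against 945 in SOCS3iKEO saline and 1214 and 1423 in WT saline. Igfbp5 fell by 4.81 ± 0.39 on the log2 scale (adjusted p = 0.000199). Igf1, the growth factor itself, had 0.883 and 4 in SOCS3iKEO LPS and 6.4, 12.6 and 6.76 in WT LPS, against 65.5 in SOCS3iKEO saline and 85.8 and 80.3 in WT saline. Igf1 fell by 3.63 ± 0.40 on the log2 scale (adjusted p = 0.000837). For each of the 3 the highest LPS library was well below the lowest saline library. The effect on Igfbp5 was -4.13 in SOCS3iKEO and -5.19 in WT and on Igf1 -4.44 in SOCS3iKEO and -3.19 in WT, and neither difference passed the test (adjusted p = 0.314 and 0.233).

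Receptors of vascular signals fell with them. Npr3, the clearance receptor of natriuretic peptides, on chromosome 15 (mm10 11839896 to 11907287), had 6.71 and 6.5 in SOCS3iKEO LPS and 1.1, 2.98 and 2.79 in WT LPS, against 83.3 in SOCS3iKEO saline and 103 and 183 in WT saline. Npr3 fell by 4.74 ± 0.43 on the log2 scale (adjusted p = 0.000323). It is the one gene of these 12 with a called difference between genotypes, and its fall was larger in WT (-3.47 in SOCS3iKEO and -5.45 in WT, adjusted p of the difference = 0.0464). Aplnr, the apelin receptor, had 0.883 and 1.8 in SOCS3iKEO LPS and 2.61, 5.83 and 2.52 in WT LPS, against 55.5 in SOCS3iKEO saline and 39.5 and 48.5 in WT saline. Aplnr fell by 3.80 ± 0.36 on the log2 scale (adjusted p = 0.000406). Chrm3, a muscarinic acetylcholine receptor, had 8.48 and 9.11 in SOCS3iKEO LPS and 3.37, 6.11 and 5.86 in WT LPS, against 137 in SOCS3iKEO saline and 97.1 and 110.0 in WT saline (log2 fold change -4.02 ± 0.24, adjusted p = 5.38e-05).

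The other named genes that fell were Ephx1, a detoxifying epoxide hydrolase (5.22 to 14.8 scaled RPM after LPS and 125 to 159 after saline; log2 fold change -3.69 ± 0.27, adjusted p = 0.000109), Samd12 (6.65 to 24.7 scaled RPM after LPS and 159 to 171 after saline; log2 fold change -3.64 ± 0.40, adjusted p = 0.000772) and Nrep, a neuronal regeneration protein (2.5 to 7.43 scaled RPM after LPS and 68.2 to 102 after saline; log2 fold change -3.91 ± 0.32, adjusted p = 0.000199). Cryab, the small heat shock protein alpha B-crystallin, had 150.3 and 101 in SOCS3iKEO LPS and 62.5, 100.5 and 144 in WT LPS, against 1209.8 in SOCS3iKEO saline and 3631 and 654 in WT saline (log2 fold change -3.73 ± 0.51, adjusted p = 0.00216), with WT saline 1 far above the other saline libraries. Pcp4l1, a relative of the calmodulin-binding peptide PEP-19, was at 8.59 to 20.7 scaled RPM after LPS and 114 to 201 after saline. Pcp4l1 fell by 3.43 ± 0.33 on the log2 scale (adjusted p = 0.000406). Sncg, gamma-synuclein, was at 45.7 to 95.9 scaled RPM after LPS and 524 to 952 after saline. Sncg fell by 3.32 ± 0.29 on the log2 scale (adjusted p = 0.000277). Their effects were alike in sign in both genotypes, and none of these 6 had a called difference between genotypes.

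Some separated genes lay side by side on chromosomes. Among 12347 genes with a position, runs of 3 or more neighbours separated in the same direction numbered 18 for higher (58 genes) and 71 for lower (227 genes). Of all genes tested, 5.98% were separated higher and 16.3% lower, so the larger lower set gives more runs without any clustering. The number of runs that a random order would give was not tested. The longest higher run held Serpina3f, Serpina3g, Serpina3h, Serpina3i and Serpina3n on chromosome 12 (mm10 104214544 to 104414329), relatives that may share reads. Another held Pf4, Cxcl3, Cxcl1 and Cxcl2, chemokine genes on chromosome 5 (90772435 to 90905938), of which Pf4 is known from platelets and the others for drawing neutrophils. The 3 fibrinogen genes Fgg, Fga and Fgb on chromosome 3 (83007724 to 83049863) formed a run. Socs3 lay in a run with Pgs1 and Cyth1 on chromosome 11. The longest lower runs included Hoxb9, Hoxb8, Hoxb7 and Hoxb6, homeobox genes of chromosome 11, with Gm53. Gimap4, Gimap6, Gimap1os and Gimap1, a family of immune GTPases and an opposite-strand gene, formed a lower run on chromosome 6, where reads of overlapping genes cannot be told apart.

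Promoters are shown for 6 members of these runs and groups because they hold matches to the motifs of the pathways that LPS is known to use. Each is the 250 bases before the start site, from RefSeq (GRCm38.p6), with capitals for matches, on either strand, to motifs of the NF-kB, STAT, C/EBP, AP-1 or interferon response type. In Cxcl2 the capitals are matches to the NF-kB type motif or its wider consensus, in Sele a STAT and an AP-1 type match, in Fga a STAT and a C/EBP type match, in Fgb an AP-1, a STAT and a C/EBP type match, in Serpina3f an NF-kB, a STAT and 2 C/EBP type matches, and in Ifi205 an interferon response type match.
Cxcl2 (chr5:90903649-90903898, plus strand): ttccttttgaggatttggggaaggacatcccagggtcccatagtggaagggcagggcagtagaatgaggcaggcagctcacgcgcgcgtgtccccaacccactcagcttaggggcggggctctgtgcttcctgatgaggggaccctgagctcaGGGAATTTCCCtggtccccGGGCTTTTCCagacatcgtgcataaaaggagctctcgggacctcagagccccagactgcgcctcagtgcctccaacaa
Sele (chr1:164047984-164048233, plus strand): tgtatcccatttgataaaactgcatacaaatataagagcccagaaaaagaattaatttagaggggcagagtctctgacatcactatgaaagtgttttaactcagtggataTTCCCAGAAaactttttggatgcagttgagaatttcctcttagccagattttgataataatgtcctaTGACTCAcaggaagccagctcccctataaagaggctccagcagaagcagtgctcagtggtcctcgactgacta
Fga (chr3:83025903-83026152, plus strand): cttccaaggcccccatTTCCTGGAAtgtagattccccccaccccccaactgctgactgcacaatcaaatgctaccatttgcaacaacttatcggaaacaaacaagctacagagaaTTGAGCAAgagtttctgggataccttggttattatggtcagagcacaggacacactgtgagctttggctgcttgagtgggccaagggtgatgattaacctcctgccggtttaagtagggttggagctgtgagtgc
Fgb (chr3:83049864-83050113, minus strand): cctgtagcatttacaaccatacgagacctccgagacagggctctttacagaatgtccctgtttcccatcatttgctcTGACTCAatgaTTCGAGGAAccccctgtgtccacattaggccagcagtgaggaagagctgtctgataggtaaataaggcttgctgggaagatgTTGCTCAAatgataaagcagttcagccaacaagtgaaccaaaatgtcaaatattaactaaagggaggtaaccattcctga
Serpina3f (chr12:104214294-104214543, plus strand): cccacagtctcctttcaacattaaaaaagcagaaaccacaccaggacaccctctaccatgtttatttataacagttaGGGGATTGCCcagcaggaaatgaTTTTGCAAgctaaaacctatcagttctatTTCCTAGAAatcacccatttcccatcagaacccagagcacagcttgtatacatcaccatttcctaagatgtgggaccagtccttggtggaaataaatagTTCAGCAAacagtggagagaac
Ifi205 (chr1:174031756-174032005, minus strand): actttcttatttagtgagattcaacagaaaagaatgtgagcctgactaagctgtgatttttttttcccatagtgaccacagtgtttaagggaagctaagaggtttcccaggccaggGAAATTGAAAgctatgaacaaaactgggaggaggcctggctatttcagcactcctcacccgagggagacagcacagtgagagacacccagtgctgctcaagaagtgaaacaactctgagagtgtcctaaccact

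For promoters of the RefSeq table that could be matched by symbol (563 genes separated higher, 1586 separated lower and 9752 tested) and over all 27025 promoters of the table, the share with a match on either strand was counted. The NF-kB type motif (GGG, any pair of bases, TT, any base, CC) was found in 8.53% of promoters of genes separated higher and 4.67% of genes separated lower, against 5.6% of genes tested and 4.71% of all promoters. The wider NF-kB consensus, added after the values were seen, was found in 16.3% and 9.52%, against 10.4% of genes tested and 8.18% of all promoters. In the same order, the shares for the AP-1 type TGANTCA were 9.06% and 4.22%, against 4.99% and 7.93%. For the interferon response type (GAAA repeated after any pair of bases) they were 5.68% and 2.27%, against 3.05% and 3.49%. The STAT type TTCNNNGAA gave 10.3% and 6.37%, against 7.11% and 8.47%, and the C/EBP type (TTGCNNAA or TTNNGCAA) 10.5% and 7.5%, against 7.96% and 10.8%. TATAAA gave 11% and 6.37%, against 7.04% and 14.2%, whereas CCAAT gave 34.6% and 40.1%, against 37.6% and 37.9%. The metal response core TGCNCNC, a short and common sequence, gave 61.1% and 62.5%, against 60.4% and 50.4%. The shares for the C/EBP type and TATAAA were thus higher over all promoters than in genes separated higher. The NF-kB type and the NF-kB consensus can match the same bases. Matches are descriptions of letters in these windows.

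**Figure D3:**
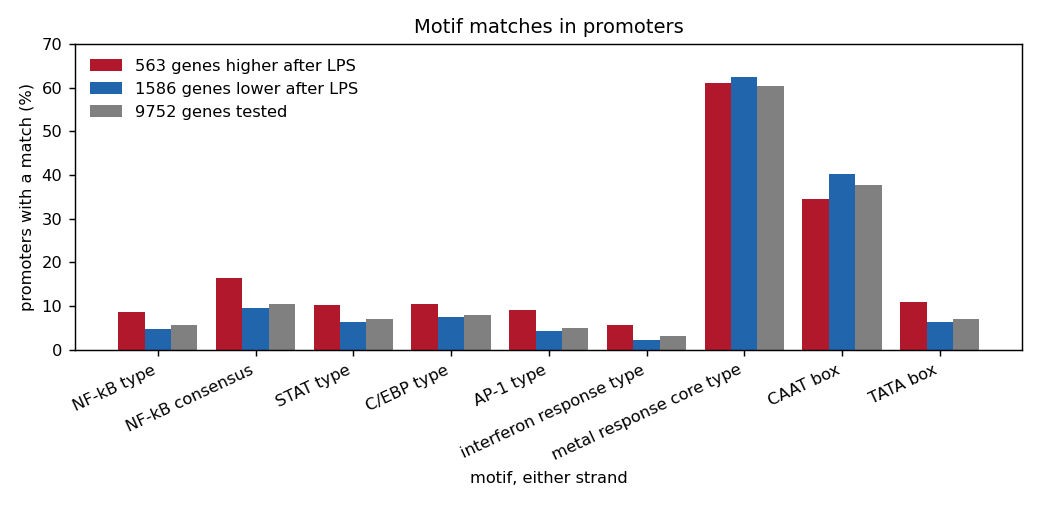
Share of promoters (%) with at least 1 match to each motif on either strand, for genes separated higher (red), genes separated lower (blue) and all genes tested (grey). The shares for the NF-kB, AP-1 and interferon response types are highest in the genes separated higher, at 8.53%, 9.06% and 5.68%. The same holds for the NF-kB consensus (16.3%), the STAT type (10.3%), the C/EBP type (10.5%) and the TATA box (11%). The shares for the CAAT box and the metal response core are not highest there.

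Further members were grouped by pathway. Counts are members called over both genotypes among members tested, beside 10.2% called higher and 12.5% called lower over all genes tested and a median log2 fold change of -0.07. Lists were written from textbook knowledge with earlier results of these data known. On the deposited scale the median of all genes was -0.46, which shifts every list. Where a list's counts of higher or lower calls moved by 1.5 times or more, or its median changed sign, on the deposited scale, without both SOCS3iKEO LPS libraries or with edgeR on the recovered reads, those counts (higher, then lower) or that median follow in the brackets. A median that kept its sign is not repeated in the brackets, even where edgeR gave a larger one. The pseudocount of the limma fit understates changes of low genes.

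Genes of LPS sensing and NF-kB feedback rose in part. Of 15 LPS and Toll-like receptor genes, 6 were called higher and 0 lower (median log2 fold change 0.95). Cd14, the co-receptor that hands LPS to its receptor, had 3964 and 2851 in SOCS3iKEO LPS and 249, 65.9 and 115 in WT LPS, against 21.3 in SOCS3iKEO saline and 14.3 and 22.7 in WT saline. Cd14 rose by 4.33 ± 0.81 on the log2 scale (adjusted p = 0.00731). The SOCS3iKEO LPS values lay well above the highest WT LPS value. Irak3, an inhibitory kinase-like brake on the same pathway, had 414 and 368 in SOCS3iKEO LPS and 311, 251 and 354 in WT LPS, against 46.3 in SOCS3iKEO saline and 38.8 and 45.1 in WT saline, with similar effects of 3.05 in SOCS3iKEO and 2.83 in WT (log2 fold change 2.91 ± 0.19, adjusted p = 7.20e-05). Map3k8, an upstream kinase of ERK (64.1 to 284 scaled RPM after LPS and 18 to 25.3 after saline), and Irak2, a signalling kinase (176 to 473 scaled RPM after LPS and 56.6 to 66.2 after saline), were called higher (adjusted p = 0.00229 and 0.000847). Of 14 inhibitors and subunits of NF-kB, 8 were called higher and 0 lower (median log2 fold change 1.63). Nfkbiz, a nuclear co-regulator, had 2031 and 2671 in SOCS3iKEO LPS and 619, 419 and 537 in WT LPS, against 31.9 in SOCS3iKEO saline and 33.2 and 26.2 in WT saline. Nfkbiz rose by 4.82 ± 0.38 on the log2 scale (adjusted p = 0.00019). Tnfaip3, the ubiquitin-editing enzyme A20, was at 124 to 734 scaled RPM after LPS and 23.8 to 35.2 after saline. Tnfaip3 rose by 3.15 ± 0.44 on the log2 scale (adjusted p = 0.00229). Its partner Tnip1 was at 697 to 1334 scaled RPM after LPS and 121 to 190.5 after saline (log2 fold change 2.50 ± 0.19, adjusted p = 0.000169), with effects of 2.80 in SOCS3iKEO and 2.33 in WT. Bcl3, another atypical inhibitor, was at 106 to 679 scaled RPM after LPS and 39.1 to 64.5 after saline. Bcl3 rose by 2.29 ± 0.41 on the log2 scale (adjusted p = 0.0065).

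Most STAT3 and acute-phase genes rose, and genes of the JAK-STAT and interleukin-6 family rose in part. Of 20 STAT3 and acute-phase genes, 17 were called higher and 0 lower (median log2 fold change 2.78; 3.25 in SOCS3iKEO and 2.19 in WT). With edgeR on the recovered reads the median of this list was 4.43. Haptoglobin (Hp) was called but not separated, and orosomucoid (Orm1) was separated but not called. Saa2 and Saa3 (serum amyloid A), Fgb, Lrg1 and the transcription factors Cebpb and Cebpd were among those both called and separated. Serpina3g, a protease inhibitor, had 141 and 107 in SOCS3iKEO LPS and 218, 135 and 119.9 in WT LPS, against 14.1 in SOCS3iKEO saline and 1.89 and 2.96 in WT saline; its rise was larger in WT (3.03 in SOCS3iKEO and 5.50 in WT, adjusted p of the difference = 0.0144). Of 22 JAK-STAT and interleukin-6 family genes, 7 were called higher and 0 lower (median log2 fold change 0.53; 6 and 3 deposited; 4 and 0 without both SOCS3iKEO LPS libraries). Il4ra, the interleukin-4 receptor chain, had 785 and 1016 in SOCS3iKEO LPS and 183, 124 and 237 in WT LPS, against 23.6 in SOCS3iKEO saline and 15.3 and 20 in WT saline. Il4ra rose by 3.94 ± 0.39 on the log2 scale (adjusted p = 0.000457). Osmr, the oncostatin M receptor, was at 40.9 to 269.6 scaled RPM after LPS and 8.22 to 21.4 after saline. Osmr rose by 2.66 ± 0.27 on the log2 scale (adjusted p = 0.0005). Socs2, a relative of Socs3, was at 1.67 to 35 scaled RPM after LPS and 0.484 to 0.566 after saline. Socs2 rose by 2.52 ± 0.57 on the log2 scale (adjusted p = 0.0149). Stat3 was at 523 to 2811 scaled RPM after LPS and 295 to 423 after saline. Stat3 rose by 1.72 ± 0.31 on the log2 scale (adjusted p = 0.00678).

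Chemoattractants and growth factors of leukocytes rose in most cases. Of 15 tested, 11 were called higher and 0 lower (median log2 fold change 1.86), and 13 were separated higher. With edgeR on the recovered reads the median was 5.38, so its size depends strongly on how low counts are treated. Cxcl2, a neutrophil chemokine, had 973 and 778 in SOCS3iKEO LPS and 32.6, 21.7 and 28.3 in WT LPS, against 0.339 in SOCS3iKEO saline and 0.833 and 0.377 in WT saline. Cxcl2 rose by 6.0 ± 0.85 on the log2 scale (adjusted p = 0.00237). Cxcl1, its neighbour, had 3241 and 2553 in SOCS3iKEO LPS and 227, 181 and 259.9 in WT LPS, against 8.82 in SOCS3iKEO saline and 11.8 and 9.15 in WT saline. Cxcl1 rose by 5.68 ± 0.64 on the log2 scale (adjusted p = 0.000909). Both were higher in each LPS library than in any saline library, but the effects were 9.35 in SOCS3iKEO and 4.15 in WT for Cxcl2 and 8.19 in SOCS3iKEO and 4.28 in WT for Cxcl1, and the difference was called for each (adjusted p = 0.00281 and 0.00313). The separated genes also included Cxcl3, Cxcl5, Ccl7, Ccl5, Csf1, Csf2, Il6, Lif and Il34.

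Interferon targets rose in part. Of 12 interferon-gamma GTPases and CXCR3 ligands, 8 were called higher and 0 lower (median log2 fold change 2.03). Cxcl9, a T cell chemokine, had 3221 and 4154 in SOCS3iKEO LPS and 499, 212 and 117 in WT LPS, against 18.8 in SOCS3iKEO saline and 5.61 and 8.39 in WT saline. Cxcl9 rose by 5.83 ± 0.58 on the log2 scale (adjusted p = 0.000476). Cxcl10, its relative, had 30285 and 8379 in SOCS3iKEO LPS and 437, 177 and 150.0 in WT LPS, against 62.7 in SOCS3iKEO saline and 24.5 and 35.5 in WT saline (log2 fold change 4.71 ± 0.92, adjusted p = 0.0087), with effects of 7.97 in SOCS3iKEO and 2.90 in WT that differed (adjusted p = 0.0118). Gbp2 (275 to 3165 scaled RPM after LPS and 104 to 145 after saline; log2 fold change 2.85 ± 0.50, adjusted p = 0.00574) and Gbp5 (206 to 1888 scaled RPM after LPS and 80.3 to 137 after saline; log2 fold change 2.61 ± 0.46, adjusted p = 0.0057) code for GTPases that attack vacuoles of microbes. Of 20 type I interferon-stimulated genes, 9 were called higher and 0 lower (median log2 fold change 1.05; 6 and 2 deposited; 8 and 2 without both SOCS3iKEO LPS libraries). Mx1, an antiviral GTPase, had 429.8 and 297 in SOCS3iKEO LPS and 8.76, 7.91 and 5.23 in WT LPS, against 1.36 in SOCS3iKEO saline and 0.555 and 0.538 in WT saline (log2 fold change 4.13 ± 0.80, adjusted p = 0.00851), with a called difference between genotypes (adjusted p = 0.00313). Zbp1, a sensor of Z-form nucleic acid, had 408 and 491 in SOCS3iKEO LPS and 557, 397 and 268 in WT LPS, against 66.5 in SOCS3iKEO saline and 67.8 and 66.2 in WT saline. Zbp1 rose by 2.60 ± 0.25 on the log2 scale (adjusted p = 0.000389). Its effects were 2.73 in SOCS3iKEO and 2.52 in WT, and its LPS values overlapped between genotypes. Irf7, a transcription factor of the interferon response, was at 245 to 1444 scaled RPM after LPS and 79.7 to 93.7 after saline. Irf7 rose by 2.56 ± 0.36 on the log2 scale (adjusted p = 0.00244). Of 12 MHC class I and immunoproteasome genes, 8 were called higher and 0 lower (median log2 fold change 1.01; 5 and 0 deposited). Tap1, the peptide transporter, was at 60.6 to 232 scaled RPM after LPS and 18.9 to 26.6 after saline and Nlrc5, the activator of class I genes, at 39 to 200.2 scaled RPM after LPS and 22.2 to 26.1 after saline (adjusted p = 0.00244 and 0.00657). H2-D1 was at 1669 to 4987 scaled RPM after LPS and 649 to 741 after saline (log2 fold change 1.83 ± 0.30, adjusted p = 0.00437), with the caution that class I genes are near-identical.

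Adhesion molecules that capture leukocytes rose in part. Of 12 tested, 5 were called higher and 2 lower (median log2 fold change 0.76; 5 and 4 deposited; 5 and 3 without both SOCS3iKEO LPS libraries). Selp, P-selectin, which starts leukocyte rolling, had 1023 and 653 in SOCS3iKEO LPS and 63.6, 20.2 and 33.2 in WT LPS, against 6.56 in SOCS3iKEO saline and 1.11 and 0.646 in WT saline. Selp rose by 5.16 ± 0.52 on the log2 scale (adjusted p = 0.0005). Sele, E-selectin, had 290.3 and 221 in SOCS3iKEO LPS and 30.4, 17.7 and 28.9 in WT LPS, against 6.79 in SOCS3iKEO saline and 1.67 and 1.4 in WT saline. Sele rose by 3.96 ± 0.36 on the log2 scale (adjusted p = 0.000318). Vcam1 (90.3 to 1054 scaled RPM after LPS and 25.5 to 39.5 after saline; log2 fold change 2.93 ± 0.45, adjusted p = 0.00335) and Icam1 (94.3 to 267 scaled RPM after LPS and 30.5 to 32.1 after saline; log2 fold change 2.34 ± 0.26, adjusted p = 0.000861) hold leukocytes firmly. The difference between genotypes was called for Selp, Sele and Vcam1 (adjusted p = 0.0407, 0.0401 and 0.0219) but not for Icam1 (0.0957). Jam2 was also separated higher, and Jam3 and Cd34 separated lower.

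Genes of clot formation and of clot removal both changed. Of 18 coagulation and fibrinolysis genes, 6 were called higher and 2 lower (median log2 fold change 0.84; 6 and 4 deposited; 6 and 3 without both SOCS3iKEO LPS libraries). Plat, the tissue plasminogen activator, which starts the breakdown of clots, had 9192 and 4196 in SOCS3iKEO LPS and 1927, 691 and 1252 in WT LPS, against 239 in SOCS3iKEO saline and 246 and 123 in WT saline. Plat rose by 3.45 ± 0.50 on the log2 scale (adjusted p = 0.00266). Plaur, the urokinase receptor, was at 373 to 2734 scaled RPM after LPS and 139 to 204 after saline. Plaur rose by 2.27 ± 0.41 on the log2 scale (adjusted p = 0.00637). F8, clotting factor VIII, made by endothelium, was at 2.34 to 15.5 scaled RPM after LPS and 22.8 to 30.1 after saline. F8 fell by 2.16 ± 0.37 on the log2 scale (adjusted p = 0.00532). Thbd, Procr and Entpd1, which oppose clotting or platelet activation, were also separated higher, and Tfpi and Plau separated lower.

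Among genes of the resting vessel, the angiogenic and Tie list tilted lower. The Notch and BMP list and the endothelial transcription factors moved both ways, with counts near the shares over all genes tested. Of 18 angiogenic growth factor and Tie genes, 0 were called higher and 5 lower (median log2 fold change -0.63; 0 and 9 deposited; 1 and 9 without both SOCS3iKEO LPS libraries). Besides Aplnr they included Nrp1, a co-receptor of VEGF (10.6 to 43.9 scaled RPM after LPS and 81.1 to 132 after saline; log2 fold change -2.15 ± 0.36, adjusted p = 0.00466), and Tek, the angiopoietin receptor Tie2, with 30.9 and 27.2 in SOCS3iKEO LPS and 70.3, 149 and 133 in WT LPS, against 249 in SOCS3iKEO saline and 235 and 315 in WT saline. Tek fell by 1.91 ± 0.38 on the log2 scale (adjusted p = 0.00961). Of 20 Notch and BMP genes, 3 were called higher and 3 lower (median log2 fold change 0.10; 2 and 4, median -0.38, deposited; 2 and 3, median -0.03, without both SOCS3iKEO LPS libraries). Hey1, a Notch target, was at 0.721 to 6.6 scaled RPM after LPS and 11.3 to 15.5 after saline (log2 fold change -2.24 ± 0.35, adjusted p = 0.00379), and Dll4, a Notch ligand, at 15.7 to 48.5 scaled RPM after LPS and 83.7 to 139 after saline (log2 fold change -1.65 ± 0.34, adjusted p = 0.0108). Id1, a BMP target, was at 2363 to 5274 scaled RPM after LPS and 993 to 1200.4 after saline. Id1 rose by 1.68 ± 0.28 on the log2 scale (adjusted p = 0.00463). Of 20 endothelial transcription factors, 3 were called higher and 2 lower (median log2 fold change 0.29; 2 and 3, median -0.18, deposited; 3 and 5, median -0.11, without both SOCS3iKEO LPS libraries; 2 and 2 with edgeR). Foxf1, a forkhead factor, was at 4.23 to 42.2 scaled RPM after LPS and 1.7 to 1.72 after saline (log2 fold change 2.83 ± 0.51, adjusted p = 0.00635), while Erg, which keeps vessels quiescent, had 288 and 228 in SOCS3iKEO LPS and 203, 265 and 262 in WT LPS, against 526 in SOCS3iKEO saline and 433 and 415 in WT saline. Erg fell by 0.89 ± 0.19 on the log2 scale (adjusted p = 0.0125).

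Vascular tone genes moved both ways. Of 18 vasoactive peptides and receptors, 4 were called higher and 6 lower (median log2 fold change -0.17; 3 and 9 deposited). Besides Npr3 and Chrm3, the natriuretic peptide receptors with guanylyl cyclase activity, Npr1 and Npr2, were separated lower. Ptgs2, the inducible cyclooxygenase, was at 1.25 to 16.4 scaled RPM after LPS and 0.107 to 0.334 after saline. Ptgs2 rose by 2.35 ± 0.50 on the log2 scale (adjusted p = 0.0125). Nos2, the inducible nitric oxide synthase, was at 2.16 to 8.31 scaled RPM after LPS and 16.3 to 19.1 after saline (log2 fold change -1.69 ± 0.34, adjusted p = 0.00937), lower in every LPS library than in every saline library. Of 12 genes of caveolae, fenestrae and fatty acid uptake, 0 were called higher and 3 lower (median log2 fold change -0.85; 0 and 5 deposited; 0 and 2 without both SOCS3iKEO LPS libraries; 0 and 1 with edgeR). Plvap, the protein of fenestral diaphragms, had 1310.0 and 1185 in SOCS3iKEO LPS and 1312, 1616 and 1938 in WT LPS, against 3054 in SOCS3iKEO saline and 2864 and 2989 in WT saline (log2 fold change -1.02 ± 0.24, adjusted p = 0.0166); its call was lost without WT saline 2, with an adjusted p of 0.0531. Cav2, a coat protein of caveolae, was at 143 to 519 scaled RPM after LPS and 577 to 744 after saline (log2 fold change -1.21 ± 0.38, adjusted p = 0.0464); its call was lost without any 1 of SOCS3iKEO LPS 1, SOCS3iKEO LPS 2, SOCS3iKEO saline 1, WT LPS 1 and WT saline 2, with an adjusted p of up to 0.21. Of 13 junction and permeability genes, 2 were called higher and 2 lower (median log2 fold change 0.22; 2 and 5, median -0.27, deposited; 1 and 2, median -0.16, without both SOCS3iKEO LPS libraries). Rasip1, a regulator of small GTPase signalling at endothelial junctions, was at 186 to 463 scaled RPM after LPS and 86.8 to 138 after saline. Rasip1 rose by 1.27 ± 0.23 on the log2 scale (adjusted p = 0.00696). Ptprb, the phosphatase VE-PTP, was at 83.4 to 190.0 scaled RPM after LPS and 254 to 302 after saline (log2 fold change -1.07 ± 0.25, adjusted p = 0.0169); its call was lost without any 1 of SOCS3iKEO saline 1 and WT LPS 1, with an adjusted p of up to 0.055.

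Matrix, metal and stress genes rose in part. Of 25 extracellular matrix and protease genes, 13 were called higher and 2 lower (median log2 fold change 1.21; 10 and 3 without both SOCS3iKEO LPS libraries). Adamts4, an aggrecan-cleaving protease, had 1177 and 721 in SOCS3iKEO LPS and 98.7, 51.6 and 101 in WT LPS, against 10.5 in SOCS3iKEO saline and 6.17 and 7 in WT saline. Adamts4 rose by 4.46 ± 0.53 on the log2 scale (adjusted p = 0.00113). Timp1, an inhibitor of matrix proteases, was at 2.25 to 62.2 scaled RPM after LPS and 0.222 to 0.431 after saline (log2 fold change 3.15 ± 0.66, adjusted p = 0.0117), and Adamts9, a protease that cleaves versican, at 18 to 191 scaled RPM after LPS and 5.11 to 8.45 after saline (log2 fold change 2.88 ± 0.49, adjusted p = 0.00501). Of 15 metallothionein and oxidative stress genes, 8 were called higher and 0 lower (median log2 fold change 1.03; 6 and 1 deposited; 7 and 1 without both SOCS3iKEO LPS libraries). Besides Mt1 these included Sod2, the mitochondrial superoxide dismutase, with 5114 and 4199 in SOCS3iKEO LPS and 1767, 795 and 787 in WT LPS, against 164 in SOCS3iKEO saline and 202 and 158 in WT saline (log2 fold change 3.34 ± 0.47, adjusted p = 0.00228), Slc39a14, a zinc and iron importer (4.72 to 25.8 scaled RPM after LPS and 1.36 to 1.94 after saline; log2 fold change 2.18 ± 0.45, adjusted p = 0.0109), and Gclc, the catalytic subunit for glutathione synthesis (109 to 544 scaled RPM after LPS and 67.4 to 76.2 after saline; log2 fold change 1.82 ± 0.37, adjusted p = 0.0104). Of 18 genes of unfolded protein and amino acid stress, 7 were called higher and 0 lower (median log2 fold change 0.57; 6 and 1 without both SOCS3iKEO LPS libraries), among them Atf4 (1198 to 5883 scaled RPM after LPS and 531 to 639.6 after saline; log2 fold change 1.89 ± 0.37, adjusted p = 0.0085), Xbp1 (342 to 1890.3 scaled RPM after LPS and 134 to 259 after saline; log2 fold change 1.78 ± 0.30, adjusted p = 0.00489) and the chaperone Hspa5 (197 to 489 scaled RPM after LPS and 79.7 to 113 after saline; log2 fold change 1.55 ± 0.29, adjusted p = 0.00715). Of 9 heat shock proteins, 0 were called higher and 4 lower (median log2 fold change -1.29), with Cryab and the inducible HSP70 gene Hspa1a separated and Hsf1 and Hsph1 called but not separated.

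Glucocorticoid-responsive genes rose in part, and clock genes changed in both directions. Of 13 glucocorticoid-responsive genes, 8 were called higher and 0 lower (median log2 fold change 1.31; 7 and 1 deposited; 7 and 1 without both SOCS3iKEO LPS libraries). Fkbp5, a chaperone that dampens the glucocorticoid receptor, had 531 and 799 in SOCS3iKEO LPS and 1280.2, 1309 and 1885 in WT LPS, against 94.6 in SOCS3iKEO saline and 39.6 and 43.2 in WT saline. Fkbp5 rose by 4.28 ± 0.43 on the log2 scale (adjusted p = 0.0005). It rose more in WT (2.77 in SOCS3iKEO and 5.11 in WT, adjusted p of the difference = 0.0108), whereas Pdk4, a brake on pyruvate oxidation, had 673 and 533 in SOCS3iKEO LPS and 110.2, 41.1 and 90.9 in WT LPS, against 13.8 in SOCS3iKEO saline and 16 and 10.6 in WT saline (log2 fold change 3.47 ± 0.56, adjusted p = 0.00405) and rose more in SOCS3iKEO (5.34 in SOCS3iKEO and 2.43 in WT, adjusted p of the difference = 0.0196). Cdkn1a, the cell cycle inhibitor p21, had 12587 and 11743 in SOCS3iKEO LPS and 3452, 3062 and 2136 in WT LPS, against 626 in SOCS3iKEO saline and 744 and 926 in WT saline. Cdkn1a rose by 2.66 ± 0.47 on the log2 scale (adjusted p = 0.0057). Of 14 clock genes, 3 were called higher and 5 lower (median log2 fold change 0.33; median -0.16 deposited; median -0.17 without both SOCS3iKEO LPS libraries). Nr1d1, the repressor REV-ERB alpha, had 22.6 and 14.4 in SOCS3iKEO LPS and 10.2, 10.6 and 6.04 in WT LPS, against 107 in SOCS3iKEO saline and 65.4 and 107 in WT saline. Nr1d1 fell by 2.90 ± 0.29 on the log2 scale (adjusted p = 0.0005). Per2 (9.74 to 25.4 scaled RPM after LPS and 1.24 to 1.94 after saline; log2 fold change 2.50 ± 0.31, adjusted p = 0.00122) and Cry1 (20.4 to 37.5 scaled RPM after LPS and 4.86 to 6.44 after saline; log2 fold change 1.98 ± 0.25, adjusted p = 0.00158), repressors of the other arm of the clock, were higher. Nr1d2, Per3, Tef and Hlf were also separated lower. The hour of the day at which kidneys were taken is not given in the labels for each animal, and its part in these values was not tested.

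Genes of cell death, metabolism and translation changed in part. Of 19 cell death and inflammasome genes, 10 were called higher and 0 lower (median log2 fold change 0.70; 3 and 3 deposited). Casp4, the caspase that binds LPS inside cells, had 114 and 84.8 in SOCS3iKEO LPS and 31.8, 24.4 and 34.4 in WT LPS, against 10.9 in SOCS3iKEO saline and 3.39 and 3.07 in WT saline (log2 fold change 2.94 ± 0.22, adjusted p = 0.000143), with effects of 3.06 in SOCS3iKEO and 2.87 in WT. Mlkl, the executioner of necroptosis, was at 80.1 to 280.0 scaled RPM after LPS and 29.4 to 33.8 after saline. Mlkl rose by 2.28 ± 0.33 on the log2 scale (adjusted p = 0.00261). Of 17 glycolysis and hypoxia targets, 6 were called higher and 1 lower (median log2 fold change 0.47; 5 and 3 deposited; 4 and 1 without both SOCS3iKEO LPS libraries); Hk2, a hexokinase, was at 1.98 to 72.6 scaled RPM after LPS and 0.389 to 0.792 after saline (log2 fold change 2.99 ± 0.67, adjusted p = 0.0145) and Hif1a at 181 to 1909 scaled RPM after LPS and 67.8 to 100.3 after saline (log2 fold change 2.78 ± 0.51, adjusted p = 0.00691). Of 21 oxidative phosphorylation genes, 1 was called higher and 0 lower (median log2 fold change 0.22; 0 and 1, median -0.27, deposited). Of 15 cholesterol genes, 4 were called higher and 1 lower (median log2 fold change 0.37; 1 and 1, median -0.04, deposited; 7 and 0 without both SOCS3iKEO LPS libraries). Of 8 genes of arginine and polyamine metabolism, 4 were called higher and 0 lower (median log2 fold change 1.03; 2 and 0 without both SOCS3iKEO LPS libraries), led by Arg2, a mitochondrial arginase (9.3 to 126 scaled RPM after LPS and 0.861 to 6.45 after saline; log2 fold change 3.02 ± 0.55, adjusted p = 0.00665). Of 8 cytosolic ribosomal protein genes measured, 6 were called higher and 0 lower (median log2 fold change 1.40). Rpl32 had 1771 and 1688 in SOCS3iKEO LPS and 1276, 608 and 615 in WT LPS, against 230.2 in SOCS3iKEO saline and 278 and 195 in WT saline (log2 fold change 2.16 ± 0.34, adjusted p = 0.00356), and Rpl4 was at 1544 to 3801 scaled RPM after LPS and 618 to 883 after saline. Rpl4 rose by 1.73 ± 0.30 on the log2 scale (adjusted p = 0.00551).

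Smaller groups were mixed. Of 16 AP-1 and immediate early genes, 5 were called higher and 0 lower (median log2 fold change 0.79; 2.86 in SOCS3iKEO and 0.01 in WT). Fosl1, an AP-1 subunit, had 171 and 98.9 in SOCS3iKEO LPS and 89.4, 24.2 and 30.6 in WT LPS, against 0.453 in SOCS3iKEO saline and 0.889 and 0.107 in WT saline (log2 fold change 5.43 ± 0.50, adjusted p = 0.000354), and Myc had 1263 and 880.1 in SOCS3iKEO LPS and 216, 48.6 and 87.1 in WT LPS, against 6.11 in SOCS3iKEO saline and 8.5 and 6.24 in WT saline. Myc rose by 4.87 ± 0.71 on the log2 scale (adjusted p = 0.00262). Of 15 interleukin-1 and TNF family receptors, 7 were called higher and 0 lower (median log2 fold change 0.75; 6 and 1 deposited; 5 and 2 without both SOCS3iKEO LPS libraries); Tnfrsf12a, the TWEAK receptor, was at 89.1 to 202 scaled RPM after LPS and 14.7 to 29.6 after saline. Tnfrsf12a rose by 2.85 ± 0.33 on the log2 scale (adjusted p = 0.000944). Of 9 complement genes, 2 were called higher and 0 lower (median log2 fold change 0.19; 2 and 1 deposited; 3 and 0 without both SOCS3iKEO LPS libraries; 3 and 0 with edgeR); C3 was at 16.6 to 51.9 scaled RPM after LPS and 1.92 to 3.82 after saline. C3 rose by 3.14 ± 0.36 on the log2 scale (adjusted p = 0.000944). Of 10 mRNA decay regulators, 2 were called higher and 0 lower (median log2 fold change 0.17; 2 and 1, median -0.32, deposited); Zc3h12a, the nuclease Regnase-1, was at 86.3 to 556 scaled RPM after LPS and 15.9 to 18.4 after saline. Zc3h12a rose by 3.21 ± 0.39 on the log2 scale (adjusted p = 0.00119). Of 12 MAPK phosphatases and Sprouty genes, 2 were called higher and 2 lower (median log2 fold change 0.88; 1 and 2 without both SOCS3iKEO LPS libraries). Of 16 cell cycle genes, 3 were called higher and 0 lower (median log2 fold change -0.45; 1 and 1 deposited; median 0.16 without both SOCS3iKEO LPS libraries). Of 16 DNA methylation genes, 4 were called higher and 1 lower (median log2 fold change 0.07; 3 and 2, median -0.41, deposited). Tet1, which oxidises methylcytosine, had 0 and 0.401 in SOCS3iKEO LPS and 0.758, 0.486 and 0.361 in WT LPS, against 3.96 in SOCS3iKEO saline and 4.33 and 6.67 in WT saline (log2 fold change -2.07 ± 0.22, adjusted p = 0.000743), with effects of -2.07 in SOCS3iKEO and -2.07 in WT. Its LPS values lay near the floor, where the pseudocount limits the size of both effects. Tdg, which excises the oxidised base, was at 26.8 to 56.7 scaled RPM after LPS and 13.8 to 17.8 after saline. Tdg rose by 1.27 ± 0.24 on the log2 scale (adjusted p = 0.00835).

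**Figure D4:**
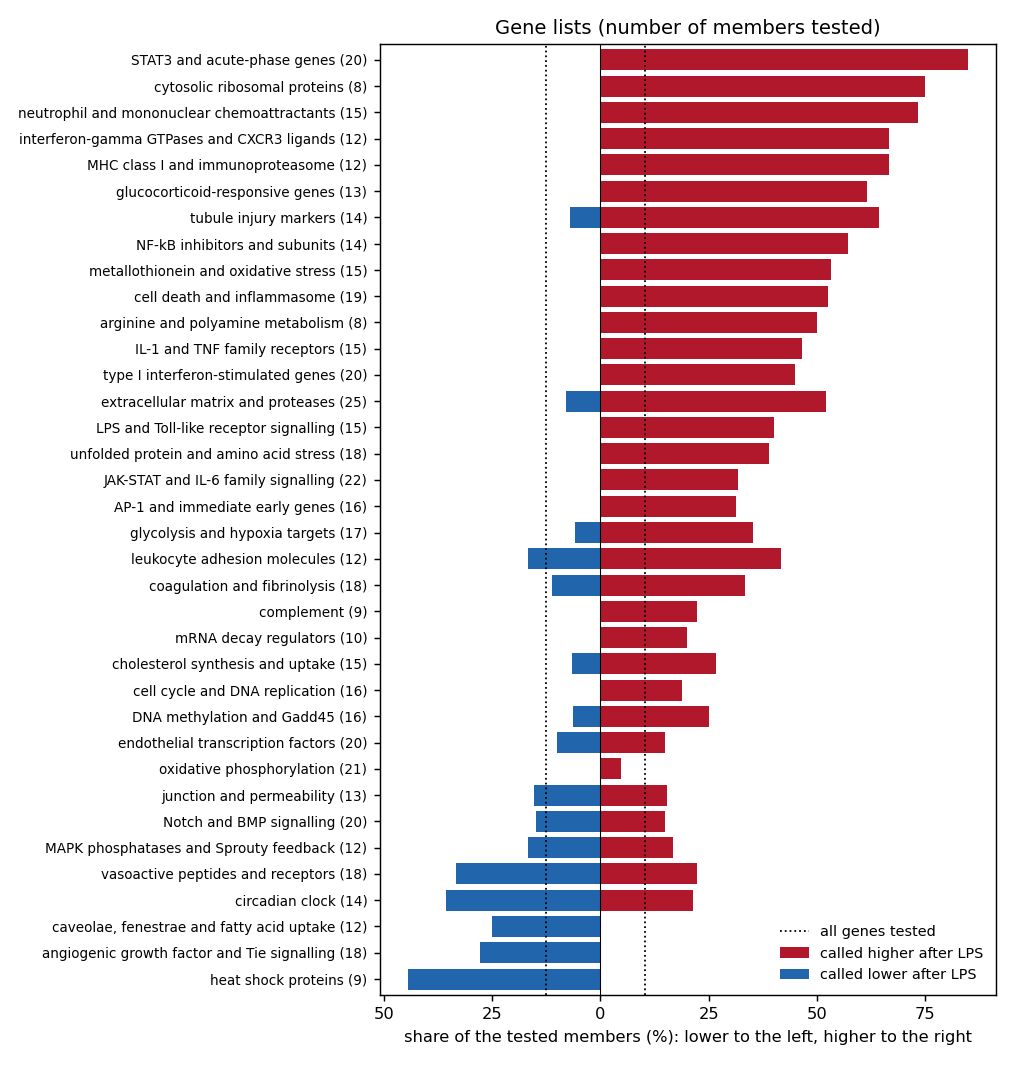
Share of each gene list's tested members (%) called higher (red, to the right) or lower (blue, to the left) after LPS over both genotypes, with the number tested in brackets. Dotted lines mark 10.2% higher and 12.5% lower over all genes tested; the STAT3 and acute-phase list has 17 of 20 called higher, and the heat shock list 4 of 9 called lower.

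Markers of tubule injury were separated as well. Of 14 tested, 9 were called higher and 1 lower (median log2 fold change 2.26; 6 and 1 without both SOCS3iKEO LPS libraries). Spp1, osteopontin, had 1059 and 1021 in SOCS3iKEO LPS and 865, 104 and 211 in WT LPS, against 38.7 in SOCS3iKEO saline and 45.9 and 14.7 in WT saline. Spp1 rose by 3.81 ± 0.65 on the log2 scale (adjusted p = 0.00509). Sox9, a factor of repairing epithelium, had 245 and 275 in SOCS3iKEO LPS and 29.6, 39.7 and 39.9 in WT LPS, against 3.51 in SOCS3iKEO saline and 4.28 and 6.35 in WT saline. Sox9 rose by 3.74 ± 0.56 on the log2 scale (adjusted p = 0.00286). Havcr1, kidney injury molecule 1, had 4.77 and 14.3 in SOCS3iKEO LPS and 30.6, 6.59 and 24.1 in WT LPS, against 0.226 in SOCS3iKEO saline and 0.0555 and 0.861 in WT saline (log2 fold change 3.43 ± 0.52, adjusted p = 0.00326), with its highest value in a WT library. The list shares Lcn2, Vcam1 and Cdkn1a with lists above. Proximal tubule markers summed to 1099 to 1703 in the SOCS3iKEO LPS libraries, 174 to 249 in the WT LPS libraries and 514 to 847 in the saline libraries, on scaled RPM above the saline range in SOCS3iKEO and below it in WT. Scaling factors of 0.671 and 0.709 raised the SOCS3iKEO LPS sums and factors of 1.25 to 1.26 lowered the saline sums. The place of SOCS3iKEO above the saline range thus rests in part on the scaling. Markers of the loop of Henle and distal tubule stood in the same order, at 514 to 541 in SOCS3iKEO LPS, 86.1 to 112 in WT LPS and 192 to 248 in the saline libraries. Collecting duct markers summed to 30.6 to 45.1 in SOCS3iKEO LPS and 8.16 to 8.73 in WT LPS, against 15.9 to 39.5 in the saline libraries. For all 3 sets of tubule markers, their part in the values of the injury markers was not tested. Of 7 leukocyte markers tested, 4 were called higher and 0 lower (median log2 fold change 0.95), and Itgam, S100a8 and S100a9 were separated higher. With edgeR on the recovered reads their median was 2.32. Not all rose: Adgre1 had effects of -0.65 in SOCS3iKEO and -0.28 in WT, and Lyz2 0.08 in SOCS3iKEO and -0.98 in WT. The part of leukocyte markers in genes such as Slfn4 was not tested.

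The separated genes shared a direction in both genotypes by construction, but not a size. Over all genes tested, LPS was called in 5649 genes in SOCS3iKEO (44.1%, with 20.2% higher and 23.9% lower) and in 2005 in WT (15.6%, with 6.85% higher and 8.79% lower). The difference between the genotypes' LPS effects was called in 2366 (18.5%, with 8.96% positive and 9.49% negative). Of the 767 genes separated higher, 726 were called in SOCS3iKEO and 522 in WT, 508 in both; of all genes tested, 4.71% were called higher in both genotypes. Their median log2 fold change was 2.23 in SOCS3iKEO and 1.15 in WT, and the effect was the larger in SOCS3iKEO for 682 (88.9%). The difference was called for 220 of them (28.7%), 215 larger and 5 smaller in SOCS3iKEO, the 5 being Pilra, Pglyrp1, Adamtsl4, Serpina3g and Fkbp5. Both SOCS3iKEO LPS libraries lay beyond all WT LPS libraries for 572 genes (74.6%) and short of all of them for 18 (2.35%). Over all genes tested, whatever their LPS effect, both SOCS3iKEO LPS libraries lay above all WT LPS libraries for 31.9% and below them for 35.3%. Of the 2091 genes separated lower, 1454 were called in SOCS3iKEO and 833 in WT, 615 in both, against 4.91% of all genes tested called lower in both. Their medians were -1.41 in SOCS3iKEO and -0.81 in WT, and 1575 (75.3%) moved further in SOCS3iKEO. Both SOCS3iKEO LPS libraries lay below all WT LPS libraries for 1116 (53.4%) and above them for 141 (6.74%). The difference was called for 314 (15%), 304 larger and 10 smaller in SOCS3iKEO. Genes called in opposite directions in the genotypes numbered 51 of 12820 (0.398%).

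**Figure D5:**
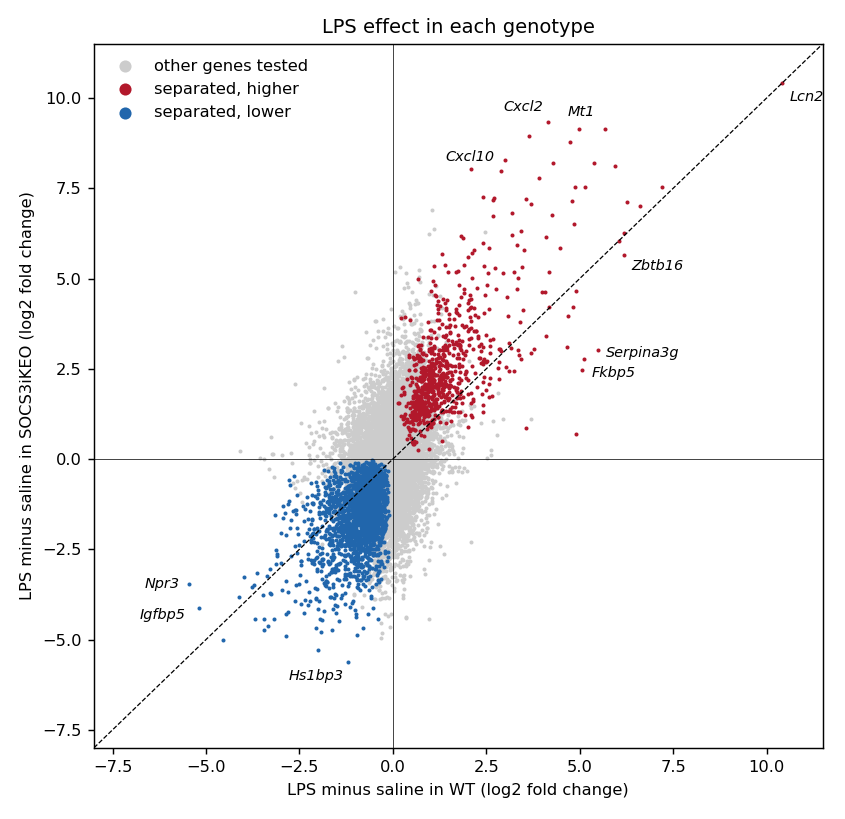
Log2 fold change of LPS against saline in SOCS3iKEO (vertical) and in WT (horizontal) for every gene tested, with the genes separated higher in red, lower in blue and the others in grey; the dashed line marks equal effects. Red points lie mostly above the line (682 of 767), with Lcn2 on it and Serpina3g and Fkbp5 below it.

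The effects were bounded to near equality for few genes. The 95% interval of the difference lay within 1 log2 unit of 0 for 22 genes separated higher and 159 separated lower, and its median reach on either side of the estimate was 1.02 and 1.00. Both sets held genes near the floor, such as Hes7 (at most 0.763 after LPS) and Gm32860 (at most 0.208 after LPS). In such genes the pseudocount limits the size of both effects, so near equality is partly set by it. After Lcn2 and Irak3, the members with the largest fold change among the 22 were Entpd1, the ectonucleotidase CD39, and Kalrn, an activator of small GTPases; these and the next ones were picked after their values were seen. Entpd1 had 215 and 304 in SOCS3iKEO LPS and 331, 246 and 341 in WT LPS, against 72.8 in SOCS3iKEO saline and 75.4 and 98.7 in WT saline, an effect of 1.80 in SOCS3iKEO and 1.80 in WT. Tbk1, a kinase of the interferon pathway, had effects of 1.16 in SOCS3iKEO and 1.20 in WT. Among genes separated lower, Fkbp4, a chaperone partner of steroid receptors, had 27.2 and 29.2 in SOCS3iKEO LPS and 41.1, 51.4 and 39.6 in WT LPS, against 109 in SOCS3iKEO saline and 145 and 138 in WT saline. Cd34, a sialomucin of vascular endothelium, had 146 and 152 in SOCS3iKEO LPS and 165, 183 and 170.3 in WT LPS, against 312 in SOCS3iKEO saline and 383 and 343 in WT saline. Cd34 fell by 1.06 ± 0.16 on the log2 scale (adjusted p = 0.00335). Gng11, a G protein subunit, had 346 and 258 in SOCS3iKEO LPS and 377, 516 and 361 in WT LPS, against 803 in SOCS3iKEO saline and 973 and 1069 in WT saline.

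At the other end stood members whose effects differed most clearly. Beside Cxcl2, Cxcl1 and Mx1, the smallest adjusted p of the difference among genes separated higher belonged to Apol9a and Lbx1. Apol9a, an apolipoprotein L relative induced by interferon, had 294 and 278 in SOCS3iKEO LPS and 31.1, 34 and 26.4 in WT LPS, against 5.99 in SOCS3iKEO saline and 15.7 and 11.9 in WT saline, with effects of 5.36 in SOCS3iKEO and 1.10 in WT (adjusted p of the difference = 0.00281); over both genotypes its call was lost without any 1 of SOCS3iKEO LPS 1, SOCS3iKEO LPS 2 and WT LPS 1, with an adjusted p of up to 0.0705. Lbx1, a homeobox factor, had 245 and 196 in SOCS3iKEO LPS and 15, 14.9 and 13.6 in WT LPS, against 0 in SOCS3iKEO saline and 0 and 0.0536 in WT saline, where the saline libraries together held 1 read. Among genes separated lower they were Hs1bp3, Borcs8, Elk3, Mapk12 and 2700081O15Rik. Hs1bp3, a lipid-binding protein, had 2.12 and 1.9 in SOCS3iKEO LPS and 21.9, 51.6 and 46.2 in WT LPS, against 148 in SOCS3iKEO saline and 72.6 and 104 in WT saline, with effects of -5.63 in SOCS3iKEO and -1.19 in WT; its call was lost without any 1 of SOCS3iKEO LPS 1, SOCS3iKEO LPS 2, SOCS3iKEO saline 1 and WT LPS 1, with an adjusted p of up to 0.0763. Borcs8, a lysosome positioning subunit, had 13.1 and 12.4 in SOCS3iKEO LPS and 64.8, 93.2 and 83.7 in WT LPS, against 137 in SOCS3iKEO saline and 129 and 123 in WT saline; its call was lost without any 1 of SOCS3iKEO LPS 1, SOCS3iKEO LPS 2, SOCS3iKEO saline 1 and WT LPS 1, with an adjusted p of up to 0.0846. Elk3, an ETS factor of vessels, had 25.8 and 33.3 in SOCS3iKEO LPS and 178, 220.1 and 215 in WT LPS, against 288 in SOCS3iKEO saline and 329 and 382 in WT saline; its call was lost without any 1 of SOCS3iKEO LPS 2 and WT LPS 1, with an adjusted p of up to 0.0646. Mapk12, the p38 gamma kinase, had 4.24 and 3.4 in SOCS3iKEO LPS and 36.1, 48.2 and 50.4 in WT LPS, against 58.4 in SOCS3iKEO saline and 58.9 and 81.6 in WT saline; its call was lost without any 1 of SOCS3iKEO LPS 1, SOCS3iKEO LPS 2, SOCS3iKEO saline 1, WT LPS 1 and WT saline 2, with an adjusted p of up to 0.11. 2700081O15Rik had 8.13 and 7.21 in SOCS3iKEO LPS and 46.8, 79.3 and 90.4 in WT LPS, against 337 in SOCS3iKEO saline and 291 and 273 in WT saline. 2700081O15Rik fell by 3.18 ± 0.57 on the log2 scale (adjusted p = 0.00615). In each the WT LPS libraries lay between the SOCS3iKEO LPS and the saline libraries.

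Transcript length and base composition were close in the sets. The longest transcript had a median of 3026 bases in genes separated higher and 3418 in genes separated lower, against 3401 in all genes tested, and the median GC content was 50.4%, 50.1% and 49.8%. Values were found for 749 of 767, 2002 of 2091 and 12347 of 12820 genes (97.7%, 95.7% and 96.3%).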

How the data were processed

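RNA of 8 mouse kidneys was measured on an amplicon panel (Ion AmpliSeq, per the labels' protocols); mm10 and the Transcriptome Analysis Console are named in the submitters' processing notes with no role, while the aligner and the counter are not stated. The deposited values are RPM, reads per 1000000 panel reads of each library, with no scaling between libraries. All values (100%) were whole multiples of 1 read within 0.1 read, so reads were recovered. On these reads edgeR's quasi-likelihood test called 2617 genes. 27 gene names turned into dates in the deposited table were restored, and 0 columns lacked a sample.

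Genes passing edgeR's filterByExpr (minimum count 10, total 15) were kept, 12820 of 23930 amplicons. RPM was divided by TMM factors and tested as log2(scaled RPM + 1) with limma-trend, genotype and treatment as terms, two-sided, with Benjamini-Hochberg adjustment over all genes tested. The pseudocount understates changes of low genes. A fit with 4 group means gave the effect in each genotype and the difference; SOCS3iKEO saline, with 1 library, took its spread from the others. R 4.3.3, edgeR 4.0.16, limma 3.58.1, DESeq2 1.42.0 and Python 3.11.15 were used. On simulated data for the LPS comparison, where 12257 genes were tested and 200 changed, 99% were recovered at a log2 change of 1 and 100% at 2, with 12 false calls. In the mouse libraries 2907 of 12820 genes were called. Recovery and false calls at the spread and composition of those libraries were not tested.

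Samples were grouped by genotype and treatment labels; nothing says more of their origin than 1 mouse each, and p-values measure the spread between these libraries. The members and lists were chosen with earlier results of these data known. Named genes were, besides Socs3, the 12 per direction with the largest smaller effect of both genotypes among genes called and separated averaging at least 3 on the log2 scale, the 5 per direction with the smallest adjusted p of the difference, up to 4 per list, and the genes at the edge of the rule; a few genes are not reported here. Alternatives were other scalings, filters (10 RPM in 3 libraries, or none), pseudocounts 0.1 and 10, edgeR, DESeq2, other terms (no genotype, Y-linked reads) and leaving out libraries. Whether counting used strand is not given, so overlapping genes, and near-identical relatives such as the Serpina3, Schlafen, Ifi, metallothionein and H2 genes, are uncertain. PCR reads carry no molecular identifiers, so floors of 3 reads cover counting error only. Promoters are from RefSeq; motifs were searched on both strands over 250 bases before and 50 after the start.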

Additional observations from a re-analysis of the deposited data

Results flagged for a closer look

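The size of the LPS effect differed between genotypes for 54 of the 141 named genes with a fold change. The test was of the difference itself in 1 fit with 4 group means (limma, adjusted p under 0.05 over all genes tested). Over all genes tested the difference was called in 2366 of 12820 (18.5%). The 5 genes per direction named for a called difference are among the 54 by choice. Other named genes were chosen by their LPS effect, so the shares are not comparable. Values below are the difference of the log2 fold changes, SOCS3iKEO minus WT, so a positive value is a larger rise or a smaller fall in SOCS3iKEO. The SOCS3iKEO effect rests on 1 saline library, and the difference is the low run of animal numbers less the high run, so genotype and run cannot be told apart in it. Y-linked reads were near 0 in every SOCS3iKEO library but not in every WT library, and the part of sex in the difference was not tested.

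Larger rises in SOCS3iKEO among immune genes, each at a positive difference, were seen in Csf3 (3.46), Slfn4 (2.82), Cxcl2 (5.20), Cxcl1 (3.91), Cxcl10 (5.07), Mx1 (4.85), Apol9a (4.26), Oasl1 (3.37), H2-D1 (1.42), Cd14 (4.53), Map3k8 (1.74), Irak2 (1.08), Nfkbiz (2.06), Tnfaip3 (2.48), Il4ra (1.93), Socs2 (2.96), Il1r1 (1.73), Cd40 (2.33), Zc3h12a (2.07), Selp (2.49), Sele (1.67) and Vcam1 (2.32). By the rule that chose them, all 22 were higher in every LPS library of both genotypes than in any saline library.

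Larger rises in SOCS3iKEO were also found in genes of stress, metabolism, matrix and transcription: Mt1 (4.18), Lbx1 (3.87), Myc (3.65), Maff (2.22), Junb (2.95), Plaur (2.17), Ptgs2 (2.38), Adamts4 (2.90), Timp1 (3.47), Adamts9 (2.39), Sod2 (2.29), Gclc (1.71), Pdk4 (2.91), Cdkn1a (2.51), Atf4 (1.76), Hspa5 (1.30), Hk2 (3.46), Hif1a (2.66), Slc16a3 (3.39), Mbd2 (1.47) and Sox9 (3.28). For Lbx1 the saline libraries held 1 read in all, so its difference depends on the pseudocount.

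Larger falls in SOCS3iKEO were found in Borcs8 (-2.67), Hs1bp3 (-4.44), Elk3 (-2.45), Mapk12 (-3.00), 2700081O15Rik (-3.28), Tek (-1.78), Dll4 (-1.70) and Dusp3 (-2.53). The opposite order, a larger effect in WT, was found in Serpina3g (-2.47), Fkbp5 (-2.34) and Npr3 (1.98): Serpina3g and Fkbp5 rose more in WT, and Npr3 fell more in WT. In Serpina3g and Fkbp5 the SOCS3iKEO saline library stood above both WT saline libraries (Serpina3g at 14.1 against 1.89 and 2.96, Fkbp5 at 94.6 against 39.6 and 43.2 scaled RPM).

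Dixon's test for a single library standing apart was applied to the 5 LPS libraries of the named genes, pooled over genotypes. Its critical value was 0.71, which chance passes for about 1 in 20 groups. Because the genotypes often differed, the pooled test can miss a library, and no conclusion is drawn from it. On scaled RPM, Socs3 had 9.94 in WT LPS 1 and at most 3.53 in the other LPS libraries. Cxcl10 had 30285 in SOCS3iKEO LPS 1 and at most 8379 in the other LPS libraries. Groups within a genotype held 3 libraries or fewer and were not examined in this way.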

How the results depend on the processing

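No call among the 141 named genes with a fold change reversed under any of 21 alternatives. These genes were separated over all libraries on both scales, so their choice left little room for a change of sign. Genes called over both genotypes numbered 1304 higher and 1603 lower. DESeq2 on the recovered reads gave 1964 higher, RPM as deposited 697 higher and 3624 lower, the mean of both genotype effects from 4 group means 2692 and 3294, and a fit with no genotype term 611 and 790; the cause was not tested. The 4 group means also stand for a term for the run of animal numbers. Leaving out 1 library in turn gave 760 to 1210 genes higher and 861 to 1491 lower, and each separation count stayed within 1.5 times. On the deposited scale and on both scales alike, 767 genes were separated higher, with 1737 in WT libraries alone and 1433 without both SOCS3iKEO LPS libraries, where fewer libraries must separate. Separated lower on the deposited scale were 3896 genes, with 2466 where 10 RPM in 3 libraries was asked, and on both scales 2091 genes, with 3587 in WT libraries alone. Of the 141 named genes, 32 lost their call with no genotype term, 19 without WT LPS 1, 17 without SOCS3iKEO saline 1, 16 without SOCS3iKEO LPS 2, 14 without WT saline 2, 13 with no filter, 10 in WT alone, 10 without both SOCS3iKEO LPS libraries, 5 with edgeR and 0 with DESeq2; 27 lost it without at least 1 single library. No paired analysis was possible because the animal numbers in the labels are unique and no group shares one with another. Depth limits low genes: 1 read was worth 0.06722 to 0.141 RPM. A fit in which SOCS3iKEO saline is left out takes its SOCS3iKEO LPS libraries only through the genotype term.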

Other observations

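Other separated members, picked after their values were seen, belonged to the vessel wall. Col4a1, a main collagen chain of basement membrane, was at 1023 to 2331 scaled RPM after LPS and 288 to 484 after saline. Col4a1 rose by 1.96 ± 0.22 on the log2 scale (adjusted p = 0.000841). Its partner Col4a2 was at 442 to 741 scaled RPM after LPS and 151 to 169 after saline. Col4a2 rose by 1.76 ± 0.19 on the log2 scale (adjusted p = 0.000792). Lamc1, a laminin chain of the same layer, was at 73.6 to 149 scaled RPM after LPS and 46 to 48.9 after saline. Lamc1 rose by 1.06 ± 0.23 on the log2 scale (adjusted p = 0.012). Hspg2, its heparan sulfate proteoglycan perlecan, was at 43.1 to 114 scaled RPM after LPS and 158 to 203 after saline. Hspg2 fell by 1.35 ± 0.27 on the log2 scale (adjusted p = 0.00947). Ace, the angiotensin-converting enzyme, was at 6.8 to 33.6 scaled RPM after LPS and 2.8 to 5.54 after saline. Ace rose by 1.41 ± 0.32 on the log2 scale (adjusted p = 0.0149). Thbd, thrombomodulin, was at 123 to 379 scaled RPM after LPS and 54.7 to 85.1 after saline (log2 fold change 1.49 ± 0.30, adjusted p = 0.0101), and Procr, the protein C receptor beside it, at 52.3 to 116 scaled RPM after LPS and 27.6 to 29.1 after saline (log2 fold change 1.35 ± 0.22, adjusted p = 0.00429). Vegfc, a growth factor of lymphatic vessels, was at 0.706 to 2.27 scaled RPM after LPS and 4.55 to 5.99 after saline. Vegfc fell by 1.24 ± 0.27 on the log2 scale (adjusted p = 0.0126). All adjusted p-values are from limma over both genotypes.

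Of the 5 genes separated higher with a called difference toward WT, 3 were not described above. Pilra, an inhibitory receptor of myeloid cells, had 0.883 and 0.701 in SOCS3iKEO LPS and 17.5, 45.7 and 45 in WT LPS, against 0.113 in SOCS3iKEO saline and 0.166 and 0.107 in WT saline, with effects of 0.69 in SOCS3iKEO and 4.91 in WT (adjusted p of the difference = 0.00716). The SOCS3iKEO LPS libraries lay close to the saline libraries and far below the WT LPS libraries. Pglyrp1, a peptidoglycan-binding protein of neutrophils, had 1.24 and 1.6 in SOCS3iKEO LPS and 12.8, 17.2 and 22.1 in WT LPS, against 0.339 in SOCS3iKEO saline and 0.611 and 0.431 in WT saline, with effects of 0.85 in SOCS3iKEO and 3.57 in WT (adjusted p of the difference = 0.0101). Adamtsl4, a matrix protein, had 4.59 and 18.5 in SOCS3iKEO LPS and 45, 48.7 and 68.5 in WT LPS, against 0.905 in SOCS3iKEO saline and 0.5 and 0.753 in WT saline, with effects of 2.46 in SOCS3iKEO and 5.06 in WT (adjusted p of the difference = 0.0477). The 9 leukocyte markers measured, of 10 listed, summed to 56.2 and 26.5 scaled RPM in SOCS3iKEO LPS and 15.2, 6.78 and 12.8 in WT LPS, against 7.33 in SOCS3iKEO saline and 4.34 and 13.7 in WT saline, and their part in these values was not tested. Values are scaled RPM, effects are on the log2 scale, and adjusted p-values are from limma over all genes.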
